A study of Homo sapiens with 12 samples.

Results

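Addback cells were compared with Vector cells under the label NA, the label of the libraries not labelled EDTA, in detached MCF10-A cells. MCF10-A is a line of human breast epithelial cells that does not form tumours. The comparison holds 4 of the 12 RNA-seq libraries of the series, chosen by their labels alone, namely Addback NA 1 and 2 against Vector NA 1 and 2. The other 8 libraries (B4-4 NA, Addback EDTA, B4-4 EDTA and Vector EDTA, with 2 each) entered the fit only for the shared estimate of the spread, except where B4-4 NA or the EDTA libraries are named. All cells were passaged with 5% horse serum, trypsinized and held for 3 h in medium without serum on poly-HEMA, a coating to which cells do not attach. Addback and Vector are derivatives of 1 cell line. The sources used here do not say how B4-4 and Addback were made, what NA stands for, or the dose and timing of EDTA, a chelator of calcium and other divalent cations.

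The series concerns gene expression after 3 h without matrix in relation to the integrin made of the alpha 6 and beta 4 chains. This integrin binds laminin of the basement membrane and anchors epithelial cells through hemidesmosomes, where its beta chain is linked to keratin filaments. Epithelial cells that lose their matrix face metabolic and oxidative stress and can die by anoikis, a form of apoptosis, or by ferroptosis, an iron-dependent death driven by lipid peroxides. Stratified epithelial cells kept in suspension are known to enter terminal differentiation.

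Totals were 17815694 and 18654590 counts in Addback NA and 17377320 and 18915827 counts in Vector NA, and the 12 libraries ranged from 15685376 to 22156173. Levels are in CPM, the counts of a gene scaled to the TMM-adjusted size of its library. By the library totals without that adjustment, 3 counts make 0.135 to 0.191 CPM. Each pair was tight. Among genes with a pair mean of at least 5 CPM, the biological coefficient of variation within the pair was 5.72% in Addback NA and 2.99% in Vector NA. Of these genes 8 of 10607 and 5 of 10603 were at least 2-fold apart, with a small constant added to each level. Genes at lower levels were not counted. The B4-4 NA pair, at 22.1%, and the Addback EDTA pair, at 16.4%, stood apart, although both enter the shared estimate of the spread. Differences are log2 fold changes of Addback over Vector with their SE, and every adjusted p comes from the quasi-likelihood test of edgeR with the Benjamini-Hochberg method over 15749 tested genes. "Rose" and "fell" stand for a higher or lower level in Addback NA at an adjusted p under 0.05. The labels do not say that replicates were separate cultures, so p-values reflect the spread among these samples alone, and that may be technical.

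ITGB4 (ENSG00000132470, chr17:75721328-75757818), the beta 4 chain, had 1059.7 and 1080.1 CPM in Addback NA, 182 and 395 CPM in B4-4 NA, and 1775 and 1780.1 CPM in Vector NA. Both Addback libraries lay below both Vector libraries and above both B4-4 libraries. Against Vector the difference missed the threshold (−0.73, SE 0.29, adjusted p = 0.0768), while against B4-4 ITGB4 was higher in Addback (+1.89, SE 0.29, adjusted p = 0.00283). These counts do not tell transcripts of the native gene from those of an introduced copy. The B4-4 NA libraries lay far apart (182 and 395 CPM) and enter the shared estimate of the spread. The missed threshold against Vector therefore does not show that Addback and Vector were alike in ITGB4. ITGA6 (chr2:172427354-172506282), its alpha 6 partner, was at 914 and 903 CPM in Addback NA and 839 and 835 CPM in Vector NA (+0.12, SE 0.13, adjusted p = 0.51). NECTIN4, a nectin of cell junctions, was at 7.22 and 8.62 CPM in Addback NA and 16.5 and 14.5 CPM in Vector NA, without overlap, but missed the threshold (−0.97, SE 0.35, adjusted p = 0.0511). PROM2 (ENSG00000155066, chr2:95274453-95291308), the pentaspan protein prominin-2 that promotes ferritin export and resistance to ferroptosis, was at 5.15 and 4.23 CPM in Addback NA, 13.6 and 15.8 CPM in B4-4 NA, and 40.4 and 40.8 CPM in Vector NA. It fell against Vector (−3.11, SE 0.16, adjusted p = 1e-07), and both Addback libraries were also below both B4-4 libraries. ITGB4 level and PROM2 level therefore did not run in the same order over the 3 derivatives.

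**Figure D1:**
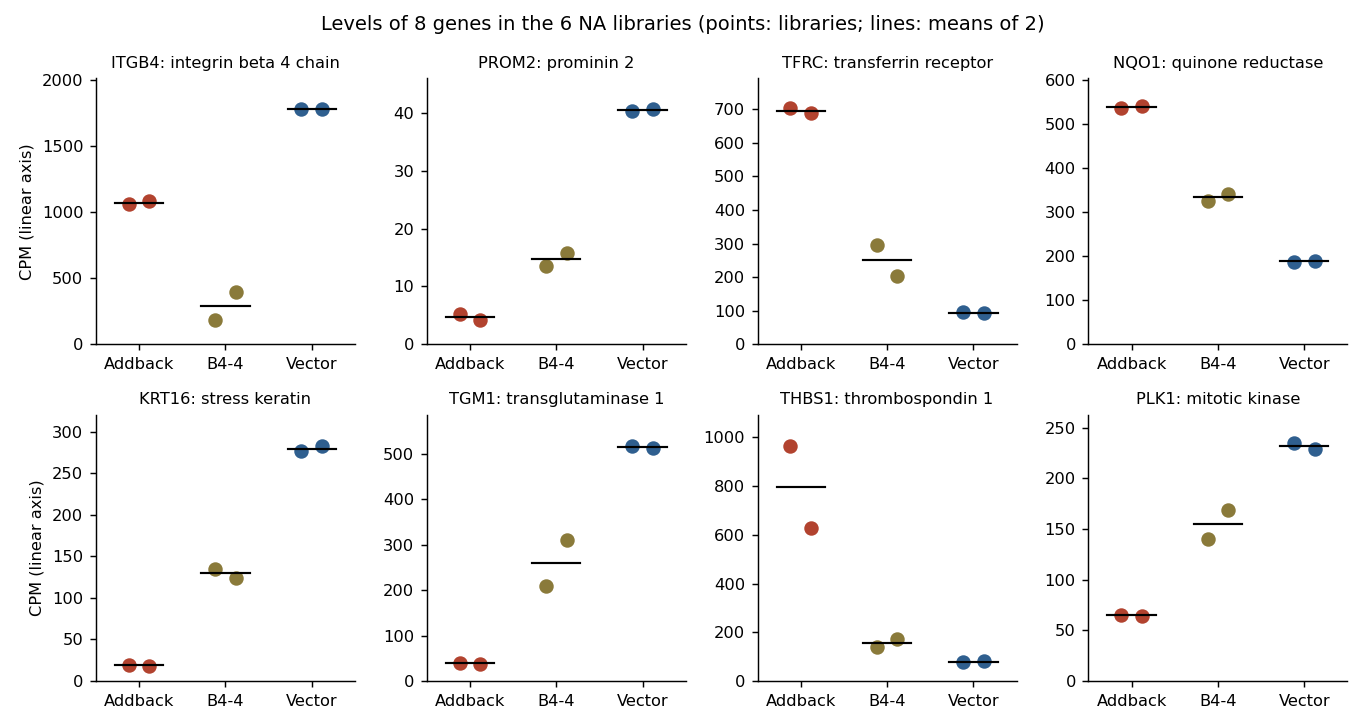
Level in CPM (linear axis from 0) of 8 genes in the 2 libraries each of Addback NA, B4-4 NA and Vector NA; points are libraries and bars their means. ITGB4 in Addback NA (1059.7 and 1080.1 CPM) lies between B4-4 NA and Vector NA, whereas PROM2, KRT16, TGM1 and PLK1 are lowest in Addback NA and TFRC, NQO1 and THBS1 are highest there.

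The labelled cell type was checked against its markers. Of all tested genes 17.9% rose and 18.1% fell, beside 11.1% and 33.3% of the basal mammary markers. Of the tested luminal markers 22.2% rose and 44.4% fell. KRT5, a keratin of basal epithelium, was at 5975 and 5790.3 CPM in Addback NA and 6664 and 6782 CPM in Vector NA, and its difference was not called (−0.19, SE 0.12, adjusted p = 0.218). Of 9 basal mammary markers 1 rose (SFN, +0.72) and 3 fell (KRT14, CDH3 and TP63), TP63 only just (adjusted p = 0.048), a call that ended without any single library of Addback NA, Vector NA, B4-4 EDTA or Vector EDTA (0.0797 to 0.173). Of 13 luminal markers 9 were tested, with 2 higher and 4 lower, and 1 was higher without Addback NA 1, Vector NA 1, Vector NA 2 or any EDTA library of B4-4 or Vector. Endothelial and adipocyte, muscle or neural markers gave 0 calls, with 2 of 8 and 2 of 10 tested, and CDH5 of endothelium was at 0. Immune markers had 2 of 10 tested, with PTPRC at 1 count in Addback NA and 0 in Vector NA, and CD3E, MS4A1 and LYZ at 0. The summed level of the immune markers was 55.8 and 48.3 CPM in Addback NA and 13.6 and 15.2 CPM in Vector NA, most of it CD14. CD14, which monocytes and some epithelial cells express, was at 54.6 and 47.5 CPM in Addback NA and 13 and 14.1 CPM in Vector NA, a call that ended without Addback NA 1 (adjusted p = 0.0869), Addback NA 2 (0.0614), Vector NA 1 (0.136) or Vector NA 2 (0.121).

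In all, 5681 genes differed between Addback NA and Vector NA, 36.1% of those tested. Of these, 2825 (17.9%) rose and 2856 (18.1%) fell, and the median of all tested genes was +0.012. At least 2-fold changes were seen for 2344 genes, of which 1300 rose and 1044 fell, and at least 8-fold changes for 416. The count depended on the libraries. It was 3224 without Addback NA 1, 3550 without Addback NA 2, 3188 without Vector NA 1 and 3137 without Vector NA 2. The 4 libraries fitted alone gave 9318, and the fit without the B4-4 NA and Addback EDTA pairs gave 8417. With so large a share of all genes called, the gene groups below are read against these background shares.

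**Figure D2:**
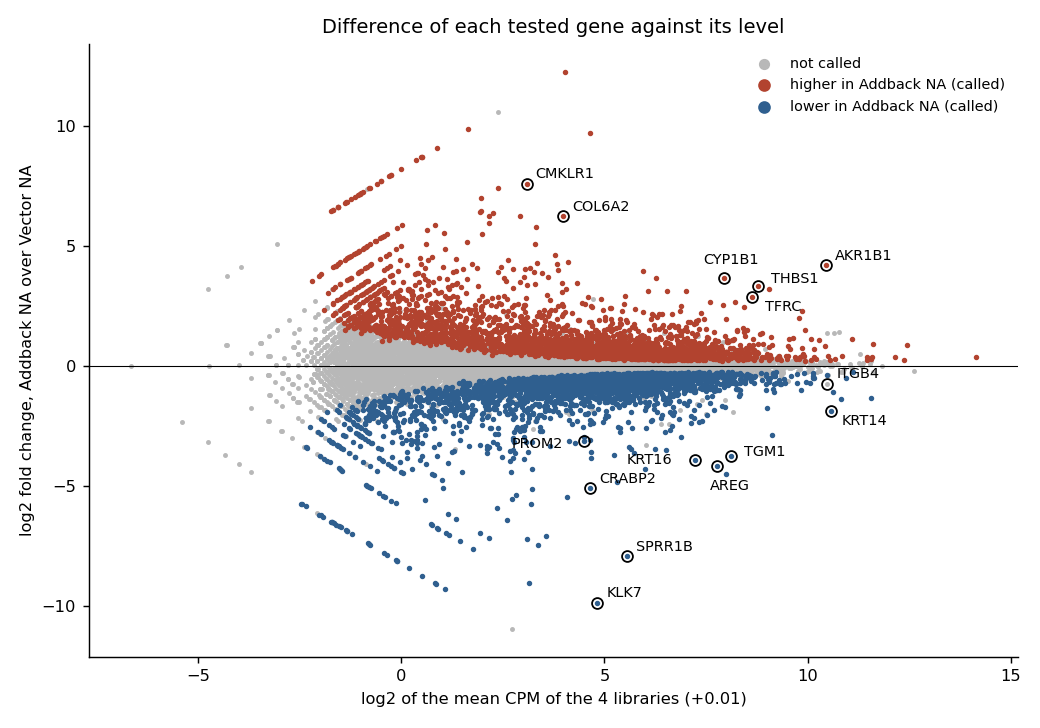
Log2 fold change of Addback NA over Vector NA (vertical axis) against the log2 of the mean CPM (horizontal axis, 0.01 added) for all 15749 tested genes; coloured points passed the test. Changes of both signs spread over the whole range of levels, and the streaks at low levels are genes at or near 0 counts in a group, at fitted values.

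The 15 largest increases included COL6A2, CXCL10, POSTN, CMKLR1, SRGN and SULT1E1. COL6A2 (chr21:46098097-46132849), a chain of type VI collagen, was at 32.6 and 29.6 CPM in Addback NA and 0.28 and 0.514 CPM in Vector NA (+6.25, SE 0.27, adjusted p = 4.46e-08). CXCL10, an interferon-induced chemokine, was at 15.4 and 14.6 CPM in Addback NA and 0.168 and 0.206 CPM in Vector NA (+6.27, SE 0.70, adjusted p = 7.44e-05). In both cases the Vector libraries were near the floor of detection. POSTN, the matrix protein periostin, had 374 counts over the Addback NA pair and 2 over the Vector NA pair, a ratio of 192 (95% counting interval 52.8 to 1590). CMKLR1, the chemerin receptor, had 613 and 3 counts in the same order, a ratio of 210 (71.4 to 1020). These ratios and intervals cover counting error only. SRGN, the proteoglycan serglycin, was at 28.6 and 25.8 CPM in Addback NA and 1.18 and 1.65 CPM in Vector NA (+4.26, SE 0.20, adjusted p = 1e-07). SULT1E1, the estrogen sulfotransferase, was at 10.02 and 10.6 CPM in Addback NA and 0.561 and 0.617 CPM in Vector NA (+4.11, SE 0.28, adjusted p = 1.41e-06). Others in the 15 largest were the adhesion molecule CADM3, the pseudogene NMRAL2P, CCDC102B, ANKRD33B and the small proteoglycan DCN, at +4.30 to +5.07.

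Some large increases did not hold in every fit. SLC6A12, a betaine and GABA transporter, had 1190 counts in Addback NA and 0 in Vector NA, at least 407-fold higher with the floor of 3 counts taken over the pair. Its adjusted p was 0.0486, and the call ended without any single library other than those of Addback EDTA (adjusted p from 0.0776 to 0.16). CCL2, a monocyte chemoattractant, had 1826 and 2 counts in Addback NA and Vector NA, a ratio of 937 (259 to 7740), and its call ended without Addback NA 1 (adjusted p = 0.0553), Addback NA 2 (0.0527), Vector NA 1 (0.119) or Vector NA 2 (0.123). AKR1B1, aldose reductase, was at 2609 and 2694 CPM in Addback NA and 144 and 144 CPM in Vector NA, and its call (+4.20, adjusted p = 0.0225) ended without Addback NA 1 (0.0674), Addback NA 2 (0.0654), Vector NA 1 (0.128) or Vector NA 2 (0.128). For all 3 of these genes the Addback EDTA libraries differed widely from each other, with AKR1B1 at 4373 CPM in the first and 369 CPM in the second. IGFBP3, an insulin-like growth factor binding protein, was at 18.3 and 20.9 CPM in Addback NA and 0.392 and 0.309 CPM in Vector NA (+5.78, adjusted p = 0.00685), and its call ended without Vector NA 1 (0.0627) or Vector NA 2 (0.0693).

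The 15 largest decreases included KLK7, A2ML1, MUC16, NIPAL4 and CRABP2. KLK7 (chr19:50976482-50984099), a kallikrein protease of the outer epidermis, had 2 counts over the Addback NA pair and 2113 over the Vector NA pair, 1030 times as many in Vector (285 to 8500). A2ML1, a protease inhibitor of the epidermal granular layer, had 1 and 658 counts in the same order, 641 times as many in Vector (115 to 25400). The mucin MUC16 was at 0.168 and 0.0542 CPM in Addback NA and 19.6 and 21.2 CPM in Vector NA (−7.45, SE 1.33, adjusted p = 0.00464). All of these were close to absent in both Addback NA libraries. NIPAL4, a magnesium transporter of the epidermal barrier, was at 0.112 and 0.163 CPM in Addback NA and 11.4 and 12.8 CPM in Vector NA (−6.39, SE 0.37, adjusted p = 3e-07). CRABP2, which carries retinoic acid, was at 1.29 and 1.57 CPM in Addback NA and 46.3 and 51.4 CPM in Vector NA (−5.09, SE 0.22, adjusted p = 4.46e-08). Neither pair came near the other in level, and NIPAL4 was at the floor of detection in Addback NA. The lipid-mobilizing glycoprotein AZGP1, the neuroendocrine precursor PCSK1N, the kinase MAPK4, the calcium-binding S100P, LINC01133 and EPB41L4A fell by between 5.10 and 7.09 on the log2 scale. IQCN was at 0.727 and 0.759 CPM in Addback NA and 32.8 and 33.4 CPM in Vector NA (−5.46, adjusted p = 0.00909), a call that ended without Addback NA 1 (0.0665) or Addback NA 2 (0.0631).

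**Figure D3:**
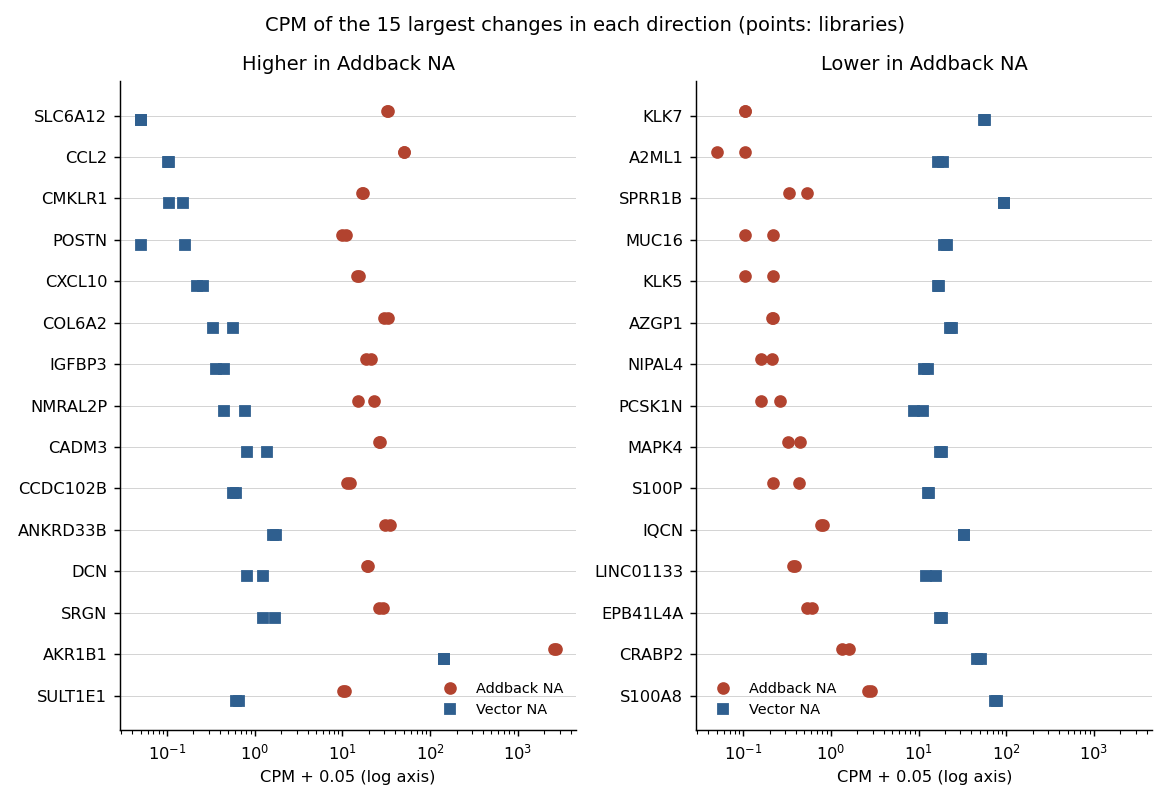
Level (CPM with 0.05 added, log axis) of the 15 genes with the largest increase and the 15 with the largest decrease among called genes of at least 5 CPM on average, in each of the 4 libraries of Addback NA and Vector NA. For each gene both Addback NA libraries lie on the same side of both Vector NA libraries, which the selection of these genes required.

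Keratins were lower in Addback NA. Of 15 tested, 0 rose and 11 (73.3%, against 18.1% of all genes) fell, with a median of −1.25. KRT16 (chr17:41609778-41615899), a keratin of activated and wounded epidermis, was at 19.5 and 17.7 CPM in Addback NA and 277 and 283 CPM in Vector NA (−3.91, SE 0.15, adjusted p = 2.23e-08). KRT14, the basal partner of KRT5, was at 658 and 661 CPM in Addback NA and 2379 and 2379 CPM in Vector NA (−1.85, SE 0.26, adjusted p = 0.000785). KRT17, another keratin of activated epidermis, was at 1072 and 935 CPM in Addback NA and 2623 and 2588 CPM in Vector NA (−1.38, SE 0.16, adjusted p = 6.27e-05), and KRT6A fell by 1.07 on the log2 scale. Both stayed abundant in Addback NA. The simple-epithelium keratin KRT8 was at 195 and 181 CPM in Addback NA and 446 and 446 CPM in Vector NA (−1.25, SE 0.23, adjusted p = 0.00273). The fall thus took in basal, activation-linked and simple-epithelium keratins. It did not take in all keratins, with 4 of the 15 tested not called. The difference of KRT5, given above, was not called. KRT6 paralogs, KRT16 and KRT17 share stretches of sequence, so the split of reads among them is uncertain.

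Genes of the cornified envelope, the cross-linked shell of dead surface cells, and the kallikreins that loosen it fell more steeply. Of 17 tested, 13 (76.5%) fell and 1 rose, with a median of −4.15 (−4.07 with genes at 0 counts in Addback NA set to their bound). TGM1 (chr14:24249114-24264432), the transglutaminase that cross-links the envelope, was at 39.4 and 37.4 CPM in Addback NA and 518 and 513 CPM in Vector NA (−3.75, SE 0.16, adjusted p = 4.46e-08). SPRR1B, an envelope precursor, was at 0.28 and 0.488 CPM in Addback NA and 93.6 and 94.97 CPM in Vector NA (−7.91, SE 0.41, adjusted p = 7.65e-07). KLK5 (chr19:50943303-50953093) was at 0.168 and 0.0542 CPM in Addback NA and 16.6 and 17.2 CPM in Vector NA (−7.18, SE 0.69, adjusted p = 3.18e-05). In Addback NA SPRR1B and KLK5 were near the floor of detection, and the libraries held almost none of the kallikreins. KLK8 had 0 counts over the Addback NA pair and 131 over the Vector NA pair, at least 42.5-fold lower in Addback NA. KLK6 had 0 and 29 counts in the same order, at least 9.42-fold lower in Addback NA. SPINK5, which inhibits these kallikreins, fell as well, at 1.12 and 0.921 CPM in Addback NA and 11.6 and 11.9 CPM in Vector NA (−3.52, SE 0.32, adjusted p = 9.77e-06). The member that rose was GRHL3, a transcription factor of barrier formation (+1.26). SPRR and KLK genes form families of close relatives, and reads may be shared within each.

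Genes of secreted defence proteins and S100 proteins were mostly lower too, with 10 of 18 (55.6%) down, 3 up and a median of −1.30. The summed level of the list, however, overlapped between the groups. It was 7014 and 7549 CPM in Addback NA and 7519 and 7547 CPM in Vector NA. S100A8, a calprotectin subunit of stressed epithelium and neutrophils, was at 2.80 and 2.60 CPM in Addback NA and 74.6 and 79.3 CPM in Vector NA (−4.83, SE 0.39, adjusted p = 3.31e-05). PI3 (elafin) and SLPI, inhibitors of neutrophil elastase, fell by 4.26 and 1.72 on the log2 scale. S100A7, psoriasin, had 0 counts over the Addback NA pair and 69 over the Vector NA pair, at least 22.4-fold lower in Addback NA. S100A4, an S100 protein of motile and mesenchymal cells, went the other way, at 138 and 147 CPM in Addback NA and 10.7 and 11.98 CPM in Vector NA (+3.65, SE 0.34, adjusted p = 8.02e-05). Within the S100 family the direction therefore depended on the member.

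Ligands of the EGF receptor and feedback genes of ERK signalling fell more often than they rose. Of 23 tested, 10 (43.5%) fell, 2 rose and 11 were not called, with a median of −0.425, and 1 rose without Addback NA 2, Vector NA 1 or Vector NA 2 and 4 without B4-4 NA 1 or 2. AREG (chr4:74445134-74455009), amphiregulin, an autocrine growth factor of mammary epithelium, was at 19.9 and 25.8 CPM in Addback NA and 409 and 411 CPM in Vector NA (−4.16, SE 0.40, adjusted p = 0.000171). EPGN, epigen, was at 22.8 and 23.8 CPM in Addback NA and 154 and 158 CPM in Vector NA (−2.74, SE 0.13, adjusted p = 1e-07). Both ligands were several-fold lower in each Addback library. ETV5, a transcription factor induced by ERK signalling, fell by 0.59 on the log2 scale. NRG1, a ligand of the ERBB3 and ERBB4 receptors, was at 9.23 and 10.1 CPM in Addback NA and 4.37 and 3.39 CPM in Vector NA (+1.32, SE 0.19, adjusted p = 0.000284). Immediate-early genes, which respond to growth factors within minutes, had 2 of 20 called (EGR2 and EGR3, both higher), below the background share, and the 2 calls fell to 0 without Addback NA 1, Vector NA 1 or Vector NA 2 and to 1 without Addback NA 2, while 5 were lower without B4-4 NA 1 or 2.

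Adhesion genes moved by smaller amounts. Among hemidesmosome components and laminin-binding integrins, 0 of 13 rose and 4 (30.8%) fell, with a median of −0.386, and 7 fell without B4-4 NA 1 or B4-4 NA 2, with 2 and 1 higher. COL17A1, a transmembrane collagen of hemidesmosomes, was at 509 and 488 CPM in Addback NA and 746 and 755 CPM in Vector NA (−0.59, SE 0.08, adjusted p = 0.000194). PLEC, plectin, the linker of the beta 4 chain to keratins, was at 835 and 804 CPM in Addback NA and 1317 and 1315 CPM in Vector NA (−0.68, SE 0.11, adjusted p = 0.000532). COL7A1, the collagen of anchoring fibrils, fell by 0.58 on the log2 scale. These 3 genes thus differed in the same direction as the ITGB4 values, by less than 2-fold. LAMA3, a laminin-332 chain, was called lower, but the call ended without Addback NA 1 (adjusted p = 0.112), Addback NA 2 (0.107), Vector NA 1 (0.0859) or Vector NA 2 (0.0828).

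Other integrins and focal adhesion genes showed the opposite direction, with 8 of 15 (53.3%) up, 0 down and a median of +0.409. Their count was 4 without Addback NA 1, 3 without Vector NA 1 and 4 without Vector NA 2. ITGA5, the alpha chain of the fibronectin receptor, was at 542 and 511 CPM in Addback NA and 285 and 281 CPM in Vector NA (+0.89, SE 0.12, adjusted p = 0.000172). FERMT2, kindlin-2, an activator of integrins, was at 89.0 and 72.3 CPM in Addback NA and 26.5 and 26.4 CPM in Vector NA (+1.61, SE 0.26, adjusted p = 0.00105). ITGB8, which with the alpha V chain activates latent TGF-beta, was at 220.4 and 167 CPM in Addback NA and 63.5 and 62.0 CPM in Vector NA (+1.63, SE 0.28, adjusted p = 0.00242). In each of the 3 the lower Addback library was still well above both Vector libraries. ITGA11, a collagen receptor, had 56 counts in Addback NA and 3 in Vector NA, a ratio of 19.2 (6.23 to 95.7), and its call ended without Vector NA 1 (adjusted p = 0.0621).

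Cell-cell junction genes fell more often than they rose. Of all tested genes 17.9% rose and 18.1% fell, beside 4.76% and 38.1% of the cadherin, nectin and desmosome list. In the cadherin, nectin and desmosome list 8 of 21 (38.1%) fell and 1 rose, with a median of −0.322, and 5, 2, 3 and 5 fell without Addback NA 1, Addback NA 2, Vector NA 1 and Vector NA 2 in turn and 5 without B4-4 EDTA 1 or 2. The 1 rise was lost without any of those 4 NA libraries and stood at 3 without B4-4 NA 1 or 2. CDH3, P-cadherin of basal epithelium, was at 400.0 and 361 CPM in Addback NA and 746 and 742 CPM in Vector NA (−0.97, SE 0.14, adjusted p = 0.000321). DSC2, a desmosomal cadherin, fell by 1.22 on the log2 scale. CDH1, E-cadherin, was called lower (−0.69), but not without Addback NA 2 (adjusted p = 0.0552). Of 14 tight junction genes 5 (35.7%) fell and 3 (21.4%) rose, with a median of −0.0215, and the rises were near the background share. Among those that fell was CGN, cingulin of the junction's cytoplasmic plaque, at 1.12 and 0.975 CPM in Addback NA and 14.97 and 15.4 CPM in Vector NA (−3.85, SE 0.51, adjusted p = 0.000313). TJP3 and the polarity protein CRB3 fell by 1.94 and 1.14 on the log2 scale. TJP1, the scaffold ZO-1, went up instead, at 318 and 275 CPM in Addback NA and 169 and 163 CPM in Vector NA (+0.84, SE 0.11, adjusted p = 0.000124). TJP1 and its paralog TJP3 thus differed in opposite directions.

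Matrix genes were changed in 1 direction. Of 21 tested, 13 (61.9%) rose, 0 fell and 8 were not called, with a median of +1.46. The members of this list were chosen with earlier results of these data known. Their shared direction is therefore not independent evidence. COL6A1, like COL6A2 a chain of type VI collagen, was at 39.7 and 39.3 CPM in Addback NA and 6.05 and 6.94 CPM in Vector NA (+2.60, SE 0.15, adjusted p = 3.68e-07). THBS1 (chr15:39581079-39599466), thrombospondin-1, an activator of latent TGF-beta, was at 966 and 628 CPM in Addback NA and 78.9 and 80.0 CPM in Vector NA (+3.33, SE 0.18, adjusted p = 2.67e-07). COL12A1, a fibril-associated collagen, was at 93.4 and 88.3 CPM in Addback NA and 15.9 and 18.9 CPM in Vector NA (+2.38, SE 0.34, adjusted p = 0.00091). The 2 Addback libraries were close for the collagens and less so for THBS1, without overlap with Vector in any of the 3. Markers of fibroblasts moved alongside. Of 9 markers 5 were tested and 4 of them rose, namely COL1A1, DCN, LUM and PDGFRB, with 3 higher without Addback NA 1 and 2 without Addback NA 2, Vector NA 1 or Vector NA 2. DCN was at 19.0 and 19.3 CPM in Addback NA and 1.18 and 0.771 CPM in Vector NA (+4.30, SE 0.54, adjusted p = 0.000339). Their summed level was 62.8 and 65.1 CPM in Addback NA and 27.4 and 25.4 CPM in Vector NA. COL1A1 was at 19.97 and 19.5 CPM in Addback NA and 12.8 and 12.1 CPM in Vector NA (+0.66, adjusted p = 0.0248), LUM at +1.47 (0.0222) and PDGFRB at +2.17 (0.00469). The 4 markers that were not tested had few counts, with COL1A2 at 1 and 3 counts in Addback NA and Vector NA, COL3A1 at 0 and 1, THY1 at 4 and 3, and PDGFRA at 13 and 1. The part of these markers in the matrix result was not tested. The 4 fibroblast markers that rose also belong to the matrix list. In bulk RNA, more cells of a type and more RNA per cell cannot be told apart.

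Of the tested genes of the epithelial to mesenchymal transition 35.7% rose and 21.4% fell, beside 17.9% and 18.1% of all tested genes. The share that fell was near the background. Of 14, 5 rose and 3 fell, with a median of +0.345, and 3 rose without Addback NA 1, Addback NA 2 or Vector NA 2. CDH2, N-cadherin, was at 53.6 and 51.4 CPM in Addback NA and 8.24 and 6.94 CPM in Vector NA (+2.79, SE 0.31, adjusted p = 0.000107). ZEB2, a repressor of epithelial genes, was at 11.4 and 10.2 CPM in Addback NA and 1.06 and 0.617 CPM in Vector NA (+3.68, SE 0.40, adjusted p = 3.6e-05). ESRP1, an epithelial splicing regulator, was at 122 and 119.6 CPM in Addback NA and 236 and 225 CPM in Vector NA (−0.93, SE 0.09, adjusted p = 2.13e-05). OVOL2, a repressor of ZEB genes, fell by 1.94 on the log2 scale. EPCAM, an epithelial adhesion protein, did not go with ESRP1 and OVOL2, and was higher at 176 and 182 CPM in Addback NA against 113 and 113 CPM in Vector NA (+0.66, SE 0.11, adjusted p = 0.000513).

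In the TGF-beta, BMP and activin list 9 of 22 (40.9%) rose and 0 fell, with a median of +0.538, and 4, 5, 4 and 3 rose without Addback NA 1, Addback NA 2, Vector NA 1 and Vector NA 2 in turn. TGFB2, a TGF-beta ligand, was at 3.69 and 4.01 CPM in Addback NA and 0.336 and 0.103 CPM in Vector NA (+4.12, SE 0.54, adjusted p = 0.000139). Its Vector libraries were near the floor of detection, so the size of this fold change is uncertain. SMAD3, a signal carrier of the pathway, was at 78.4 and 78.0 CPM in Addback NA and 55.3 and 50.8 CPM in Vector NA (+0.56, SE 0.12, adjusted p = 0.00289). Actin cytoskeleton genes and targets of SRF, a transcription factor of cytoskeletal genes, showed 11 of 22 (50%) up and 0 down, with a median of +0.382. Without Addback NA 1, Addback NA 2, Vector NA 1 and Vector NA 2 in turn 4, 7, 6 and 6 of them rose, and 1 fell without Addback EDTA 1 or 2. SRF itself was at 188 and 149.5 CPM in Addback NA and 67.6 and 69.1 CPM in Vector NA (+1.30, SE 0.12, adjusted p = 9.82e-06). Its targets FHL2 and VCL, vinculin, rose by 1.12 and 0.75 on the log2 scale. Targets of YAP and TAZ, co-activators that respond to cell shape and contact, rose in 6 of 17 and fell in 2, with a median of +0.102, and 1, 2 and 2 rose without Addback NA 1, Vector NA 1 and Vector NA 2 in turn, with 1 lower without Addback NA 2, Vector NA 1 or Vector NA 2. CCN2, the best known of these targets, was at 39.3 and 34.3 CPM in Addback NA and 2.58 and 4.06 CPM in Vector NA (+3.46, SE 0.24, adjusted p = 1.3e-06). AJUBA, a LIM protein and another member of the list, fell (−0.70, SE 0.09, adjusted p = 0.000135). Of the YAP and TAZ list 35.3% rose and 11.8% fell, beside 17.9% and 18.1% of all tested genes. The falls were thus below the background share.

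**Figure D4:**
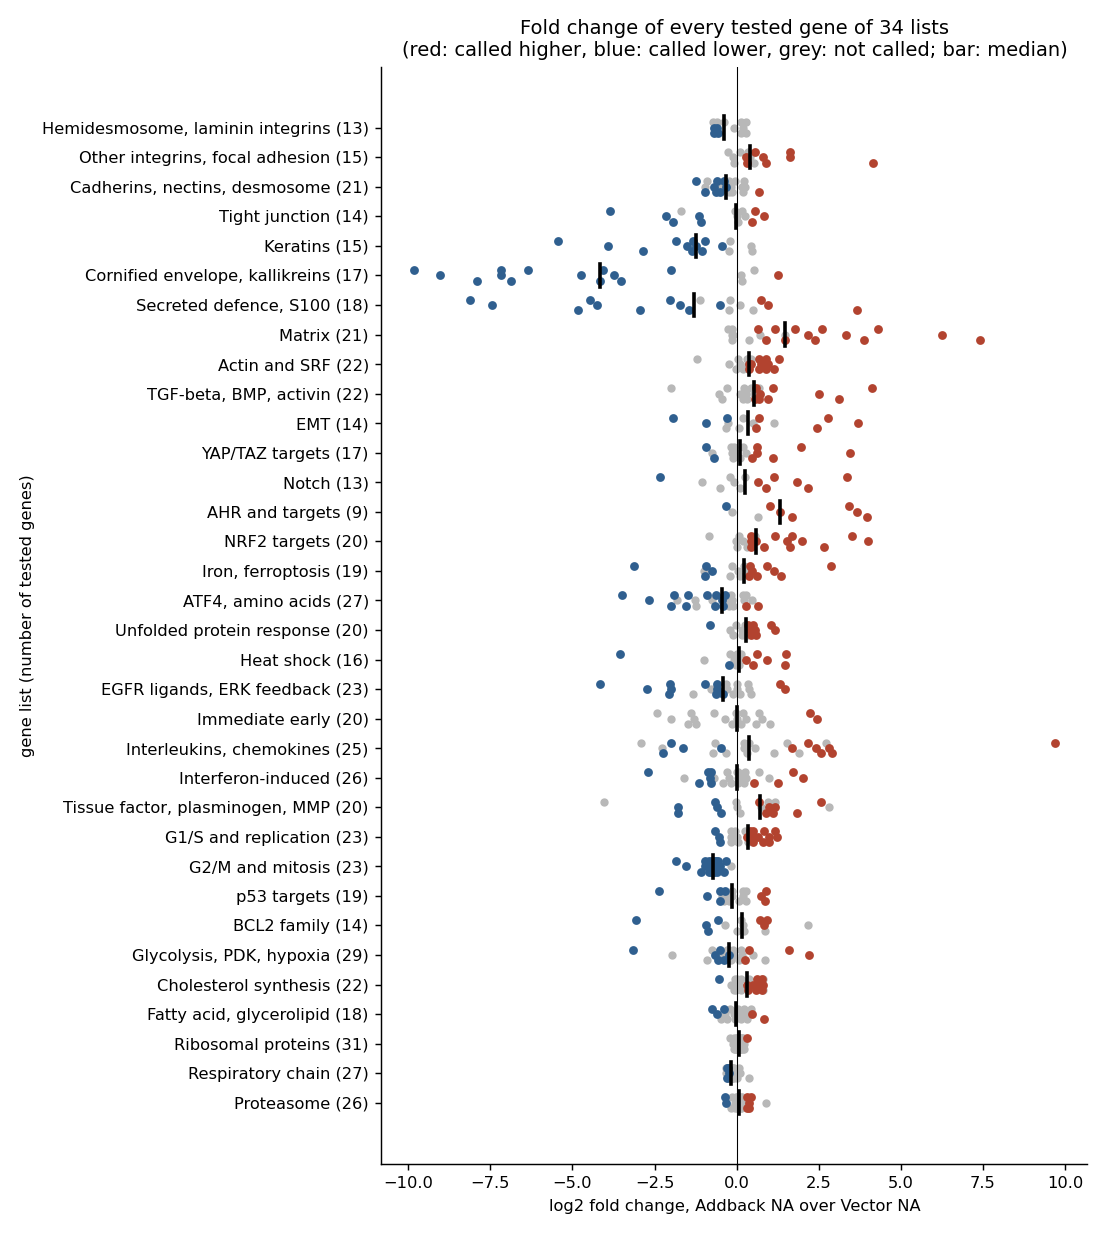
Log2 fold change of Addback NA over Vector NA for every tested gene of 34 gene lists (points; genes at 0 in a group at fitted values), with the median of each list as a bar and a line at 0. Cornified envelope genes (median −4.15), keratins (−1.25) and G2/M genes (−0.709) lie to the left, and matrix genes (+1.46) and the AHR list (+1.33) to the right.

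The next list holds the aryl hydrocarbon receptor, AHR, which senses xenobiotics and tryptophan products, its partner ARNT, and its targets. Of 9 tested, 6 (66.7%) rose, all of them targets, and 1 fell, with a median of +1.33, and 4 rose without any 1 of the 4 compared libraries. The fall was that of ARNT (−0.32, SE 0.11, adjusted p = 0.0356), and it was lost without any of the 4 NA libraries of Addback and Vector and without any EDTA library of B4-4 or Vector. CYP1B1, a cytochrome P450 and standard AHR target, was at 450.2 and 466 CPM in Addback NA and 36.1 and 36.0 CPM in Vector NA (+3.67, SE 0.32, adjusted p = 6.14e-05). It lies on the minus strand at chr2:38066973-38109902 and overlaps the plus-strand CYP1B1-AS1 (chr2:38073447-38231651), which was at 23.4 and 19.0 CPM in Addback NA and 2.58 and 2.83 CPM in Vector NA (+2.97, SE 0.25, adjusted p = 6.46e-06). Whether reads were counted by strand is not given in the sources used here, and the 2 overlapping genes cannot be told apart. CYP1A1, the other classical target, was at 121 and 111 CPM in Addback NA and 6.50 and 8.23 CPM in Vector NA (+3.97, SE 0.68, adjusted p = 0.0044). AHRR, the receptor's feedback repressor, was at 1.12 and 1.30 CPM in Addback NA and 0.168 and 0.0514 CPM in Vector NA (+3.41, SE 0.64, adjusted p = 0.00158). The Vector libraries of AHRR were at the floor of detection. TIPARP, a mono-ADP-ribosyltransferase that also restrains AHR, was at 155 and 173 CPM in Addback NA and 85.0 and 77.6 CPM in Vector NA (+1.02, SE 0.19, adjusted p = 0.0016). Each of these 4 targets was higher in both Addback libraries than in either Vector library.

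In the list of NRF2, the transcription factor of the antioxidant response, its inhibitor KEAP1 and its targets, 13 of 20 (65.0%) rose, 7 were not called and 0 fell (1 without B4-4 NA 1 or 2), with a median of +0.575. NQO1 (chr16:69706996-69726951), a quinone reductase, was at 537 and 542 CPM in Addback NA and 187 and 189.5 CPM in Vector NA (+1.52, SE 0.08, adjusted p = 2.15e-07). GCLC, the catalytic subunit of the enzyme that limits glutathione synthesis, was at 296 and 257 CPM in Addback NA and 71.9 and 67.8 CPM in Vector NA (+1.99, SE 0.12, adjusted p = 3.71e-07). TXNRD1, cytosolic thioredoxin reductase, was at 578 and 453 CPM in Addback NA and 80.5 and 82.0 CPM in Vector NA (+2.67, SE 0.21, adjusted p = 8.53e-06). All 3 enzymes were more than 2-fold higher in each Addback library than in either Vector library. GCLM, the modifier subunit that pairs with GCLC, was at 50.5 and 44.3 CPM in Addback NA and 27.1 and 25.9 CPM in Vector NA (+0.84, SE 0.17, adjusted p = 0.00214). OSGIN1, a stress-induced growth inhibitor, was at 31.7 and 23.0 CPM in Addback NA and 1.12 and 2.26 CPM in Vector NA (+4.00, SE 0.33, adjusted p = 5.06e-06). HMOX1, heme oxygenase-1, was at 17.0 and 11.1 CPM in Addback NA and 1.23 and 1.23 CPM in Vector NA (+3.50, SE 0.58, adjusted p = 0.00127). The aldo-keto reductases AKR1C1, AKR1C2 and AKR1C3 rose by 1.15 to 1.67 on the log2 scale, and as near-identical paralogs they may share reads.

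Promoters of 4 targets that rose are shown because they hold the motifs searched for in both lists. The windows are the 250 bases before each gene's listed start in RefSeq GRCh38.p14, searched on both strands for the core of the AHR response element, GCGTG, and the core of the antioxidant response element, TGACNNNGC. Capitals mark the match, which on the other strand reads as its reverse complement. The CYP1A1 window is chr15:74725529-74725778 (minus strand), the TIPARP window chr3:156674340-156674589 (plus strand), the TXNRD1 window chr12:104215529-104215778 (plus strand) and the GCLM window chr1:93909431-93909680 (minus strand).
CYP1A1: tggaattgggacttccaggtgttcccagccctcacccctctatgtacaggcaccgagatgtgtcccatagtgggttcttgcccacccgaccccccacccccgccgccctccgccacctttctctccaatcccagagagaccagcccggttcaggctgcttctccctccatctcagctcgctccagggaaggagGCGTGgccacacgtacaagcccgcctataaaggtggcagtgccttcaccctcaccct
TIPARP: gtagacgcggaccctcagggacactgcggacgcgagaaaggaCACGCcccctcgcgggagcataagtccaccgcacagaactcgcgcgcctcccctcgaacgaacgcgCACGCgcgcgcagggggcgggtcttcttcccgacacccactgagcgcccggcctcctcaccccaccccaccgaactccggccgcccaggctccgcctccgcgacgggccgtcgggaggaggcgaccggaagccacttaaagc
TXNRD1: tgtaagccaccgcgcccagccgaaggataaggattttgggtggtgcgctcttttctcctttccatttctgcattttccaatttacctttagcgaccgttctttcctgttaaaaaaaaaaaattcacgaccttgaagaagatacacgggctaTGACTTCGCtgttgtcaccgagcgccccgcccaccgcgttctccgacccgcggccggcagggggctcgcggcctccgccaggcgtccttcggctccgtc
GCLM: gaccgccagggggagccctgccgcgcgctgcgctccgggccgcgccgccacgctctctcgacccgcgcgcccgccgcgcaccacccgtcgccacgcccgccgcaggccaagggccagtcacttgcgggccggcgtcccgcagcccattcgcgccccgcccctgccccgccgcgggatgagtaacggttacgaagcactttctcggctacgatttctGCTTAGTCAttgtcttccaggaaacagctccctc
GCGTG was in 5 of the 8 AHR list windows that RefSeq matched, of 10 members, against 31.9% of all 27305 windows. TGACNNNGC was in 4 of 16 NRF2 list windows, of 20 members, namely GCLM, TXNRD1, PGD and ME1, against 11% of all windows. The most strongly raised NRF2 target, OSGIN1, held no match in its window, and neither did NQO1 or GCLC. A match is only a run of letters in this window.

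Iron genes rose more often than they fell. Of 19 genes of iron handling and ferroptosis 8 (42.1%) rose and 4 (21.1%) fell, with a median of +0.228. Of all tested genes 17.9% rose and 18.1% fell, so the falls were near the background share. TFRC (chr3:196027183-196082189), the transferrin receptor that takes up iron, was at 703 and 688 CPM in Addback NA and 96.2 and 92.6 CPM in Vector NA (+2.88, SE 0.15, adjusted p = 1e-07). The ferritin chains, which store iron, rose as well, with FTH1 at 1510.3 and 1479.6 CPM in Addback NA and 676 and 696 CPM in Vector NA (+1.12, SE 0.10, adjusted p = 1.01e-05). FTL, the light chain, was at 629.8 and 659.6 CPM in Addback NA and 252 and 259 CPM in Vector NA (+1.33, SE 0.16, adjusted p = 0.000111). Uptake and storage genes were thus both higher, in every Addback library. NCOA4, which delivers ferritin for breakdown, and GPX4, which reduces lipid peroxides, rose by 0.61 and 0.92 on the log2 scale. PROM2, described above, was the steepest of the 4 that fell, with ACSL4, which loads polyunsaturated fatty acids into lipids, at −0.98 and SLC3A2, a subunit of the cystine transporter, at −0.76.

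Genes of ATF4, the transcription factor of amino acid shortage and the integrated stress response, fell more often than they rose. Of 27 tested, 12 (44.4%) fell, 2 rose and 13 were not called, with a median of −0.451, and 9 fell without any 1 of the 4 compared libraries. TRIB3, a pseudokinase, was at 71.9 and 74.1 CPM in Addback NA and 300.3 and 288 CPM in Vector NA (−2.01, SE 0.11, adjusted p = 1.58e-07). CEBPB, a partner of ATF4, was at 38.4 and 43.7 CPM in Addback NA and 162 and 148 CPM in Vector NA (−1.92, SE 0.16, adjusted p = 6.88e-06). STC2, the secreted stanniocalcin-2, was at 50.6 and 46.4 CPM in Addback NA and 143 and 142 CPM in Vector NA (−1.55, SE 0.14, adjusted p = 9.25e-06). For these 3 genes both Addback libraries were several-fold below both Vector libraries. CHAC1, which degrades glutathione, was at 1.62 and 0.596 CPM in Addback NA and 11.8 and 13.1 CPM in Vector NA (−3.49, SE 0.44, adjusted p = 0.000104). Of the 2 that rose, ATF5 was at +0.64, and the rises numbered 1 without any 1 of the 4 compared libraries or B4-4 EDTA libraries and 4 without B4-4 NA 1.

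Chaperones of the endoplasmic reticulum were among the genes that rose. Of 20 genes of the unfolded protein response 8 (40.0%) rose and 1 fell, with a median of +0.275. The rises numbered 5 without Addback NA 1, 4 without Addback NA 2, Vector NA 1 or Vector NA 2, 13 without B4-4 NA 1 or B4-4 NA 2, and 12 with upper-quartile factors, and the falls 0 without Addback NA 2 or Vector NA 1 and 2 without B4-4 NA 1 or 2. HSPA5, the chaperone BiP, was at 1083 and 1098 CPM in Addback NA and 486 and 490.2 CPM in Vector NA (+1.16, SE 0.11, adjusted p = 1.18e-05). DNAJB9, a BiP co-chaperone, was at 42.1 and 45.2 CPM in Addback NA and 20.9 and 21.3 CPM in Vector NA (+1.05, SE 0.15, adjusted p = 0.000265). Among cytosolic heat shock genes 6 of 16 rose and 2 fell, with a median of +0.0549, and 3 rose and 1 fell without any 1 of the 4 compared libraries, with 1 lower also without B4-4 EDTA 1 or 2. HSPA1A, an inducible HSP70, was at 479.6 and 427 CPM in Addback NA and 161 and 159 CPM in Vector NA (+1.5, SE 0.10, adjusted p = 8.09e-07), and the near-identical HSPA1B, which may share its reads, was at +1.47. BAG3, their co-chaperone, rose by 0.94 on the log2 scale. HSPB8, the small heat shock protein that pairs with BAG3, had the opposite sign, at 0.168 and 0.163 CPM in Addback NA and 2.13 and 1.90 CPM in Vector NA (−3.56, SE 0.60, adjusted p = 0.00075). The Addback libraries of HSPB8 were at the floor of detection.

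Cell cycle genes split by phase. Of 23 genes of the G1/S transition and DNA replication 12 (52.2%) rose and 3 fell, with a median of +0.34. CDC6, which licenses replication origins, was at 88.0 and 81.9 CPM in Addback NA and 39.1 and 37.1 CPM in Vector NA (+1.16, SE 0.11, adjusted p = 1.62e-05). PCNA, the replication clamp, was at 174 and 185 CPM in Addback NA and 99.6 and 103 CPM in Vector NA (+0.83, SE 0.09, adjusted p = 2.49e-05). CCND1, cyclin D1, was at 190.0 and 191 CPM in Addback NA and 95.5 and 97.1 CPM in Vector NA (+0.99, SE 0.14, adjusted p = 0.000296). The subunits RRM1 and RRM2 of ribonucleotide reductase, which supplies deoxynucleotides, were among the 3 that fell. Of 23 genes of G2 and mitosis 22 (95.7%) fell and 0 rose, with a median of −0.709, and 17 fell without any 1 of the 4 compared libraries. PLK1 (chr16:23677656-23690367), a mitotic kinase, was at 65.5 and 63.8 CPM in Addback NA and 235 and 229 CPM in Vector NA (−1.84, SE 0.10, adjusted p = 2.15e-07). HMMR, a spindle protein, was at 63.8 and 64.3 CPM in Addback NA and 196 and 175 CPM in Vector NA (−1.53, SE 0.15, adjusted p = 1.97e-05). TOP2A, the topoisomerase of chromosome condensation, fell by 0.97 on the log2 scale. G2/M members other than PLK1, HMMR and CDC25C changed by less than 2-fold.

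Proteases, cytokines and Notch genes had members of both signs. Of all tested genes 17.9% rose and 18.1% fell. The shares were 35% and 25% in the protease list and 28% and 16% in interleukins and chemokines. They were 46.2% and 7.69% in Notch genes. Interferon-induced genes, at 15.4% and 23.1%, were near the background. In the tissue factor, plasminogen and matrix protease list 7 of 20 rose and 5 fell, and 4, 3 and 3 rose without Addback NA 1, Vector NA 1 and Vector NA 2 in turn, and 3 fell without Addback NA 2. PLAU, urokinase, was at 405 and 427 CPM in Addback NA and 67.6 and 73.1 CPM in Vector NA (+2.56, SE 0.35, adjusted p = 0.000873). MMP28, a matrix metalloproteinase of epithelium, was at 31.3 and 34.8 CPM in Addback NA and 114 and 115 CPM in Vector NA (−1.80, SE 0.16, adjusted p = 7.22e-06). Of 25 interleukins and chemokines 7 rose and 4 fell, with 4 higher without Vector NA 1, 11 higher and 7 lower without B4-4 NA 1 or 2, and 2 lower without any 1 of the 4 compared libraries. CSF1, the macrophage growth factor, was at 76.0 and 85.3 CPM in Addback NA and 11.2 and 10.2 CPM in Vector NA (+2.92, SE 0.24, adjusted p = 7.47e-06). LIF, a cytokine of the IL-6 family, was at 25.5 and 25.8 CPM in Addback NA and 6.17 and 5.19 CPM in Vector NA (+2.18, SE 0.21, adjusted p = 1.44e-05). IL1RN, the antagonist of the interleukin-1 receptor, was lower in both Addback libraries, at 6.04 and 6.12 CPM in Addback NA and 28.1 and 29.4 CPM in Vector NA (−2.24, SE 0.19, adjusted p = 7.22e-06). Of 26 interferon-induced genes 4 rose and 6 fell, and 3 fell without Addback NA 2 or Vector NA 1. IFIT3 rose by 2.03 on the log2 scale, while OAS1 fell by 0.88. Of 13 Notch genes 6 rose and 1 fell, with a median of +0.263; the ligand JAG1 was at 178 and 161 CPM in Addback NA and 77.1 and 77.3 CPM in Vector NA (+1.13, SE 0.12, adjusted p = 3.09e-05), and MFNG, which modifies Notch receptors with sugar, rose by 3.37 on the log2 scale. The 1 Notch gene that fell was HES1, and the count of falls was 0 without Addback NA 1 and 2 without either B4-4 NA or either Addback EDTA library.

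Lists of metabolism, protein turnover and cell death differed in their shares of called genes. Of all tested genes 17.9% rose and 18.1% fell. Glycolysis, pyruvate dehydrogenase and hypoxia genes, at 13.8% and 20.7%, were near these shares. The shares were 15.8% and 26.3% for p53 targets and 21.4% and 28.6% for BCL2 family and anoikis genes. Of 22 cholesterol synthesis genes 9 (40.9%) rose and 1 fell, with a median of +0.322, and 5 rose without Vector NA 2. SQLE, squalene epoxidase, was at 296 and 319 CPM in Addback NA and 207 and 199.6 CPM in Vector NA (+0.60, SE 0.09, adjusted p = 0.000419). Of 29 glycolysis, pyruvate dehydrogenase and hypoxia genes 4 rose and 6 fell, and the falls numbered between 1 and 13 when single libraries were left out, with 1 without Addback NA 1, Vector NA 1 or Vector NA 2, 2 without Addback NA 2, 3 without B4-4 EDTA 1 and 13 without B4-4 NA 1 or 2. The rises numbered 2 without Addback NA 2 and 1 without Vector NA 1 or 2. PDP1, the phosphatase that activates pyruvate dehydrogenase, was at 189.9 and 142 CPM in Addback NA and 37.8 and 34.8 CPM in Vector NA (+2.19, SE 0.23, adjusted p = 7.12e-05). Ribosomal protein genes had 1 of 31 called, higher, and 0 without Addback NA 2, Vector NA 1 or Vector NA 2. Respiratory chain genes had 4 of 27 called, all lower, a count that was 0 without any 1 of the 4 compared libraries, 9 without B4-4 NA 2 and 2 without B4-4 EDTA 1 or 2. Of 18 fatty acid and glycerolipid genes 2 rose and 3 fell, and of 26 proteasome genes 5 rose and 2 fell, near or below the background, and without any 1 of the 4 compared libraries at most 1 of either list rose and at most 1 fell. Of the fatty acid genes 6 fell without B4-4 NA 1 or 2, 4 rose without B4-4 NA 1 or either Addback EDTA library, and 1 rose without any 1 of the EDTA libraries of B4-4 or Vector, while 1 proteasome gene fell without B4-4 EDTA 1 or 2. Of 14 BCL2 family and anoikis genes 3 rose and 4 fell, and the rises numbered 0 without Addback NA 2, 1 without Vector NA 1 or 2, 6 without B4-4 NA 1 and 5 without B4-4 NA 2. HRK, a pro-apoptotic BH3-only protein, was at 0.727 and 0.434 CPM in Addback NA and 4.82 and 4.88 CPM in Vector NA (−3.05, SE 0.58, adjusted p = 0.00197). Of 19 p53 targets 3 rose and 5 fell, and 3 fell without Addback NA 1, Vector NA 1 or Vector NA 2 and 8 without B4-4 NA 2. GDF15, a stress cytokine, was at 8.56 and 8.67 CPM in Addback NA and 44.8 and 43.7 CPM in Vector NA (−2.36, SE 0.27, adjusted p = 7.88e-05).

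Addback was next set against B4-4 under the same label, to see which of its differences from Vector it also had from the B4-4 derivative. These contrasts share the Addback NA libraries, and the B4-4 NA pair was loose. Between Addback NA and B4-4 NA 3723 genes (23.6%) differed, of which 1784 were higher and 1939 lower in Addback, a count that was 1324 without Addback NA 1 and 1831 without Addback NA 2. KRT16 was at 19.5 and 17.7 CPM in Addback NA and 135 and 125 CPM in B4-4 NA (Addback over B4-4 −2.80, SE 0.15, adjusted p = 4.83e-07). COL6A2 was at 32.6 and 29.6 CPM in Addback NA and 0.804 and 0.83 CPM in B4-4 NA (+5.24, SE 0.25, adjusted p = 3.91e-07). TFRC stood at 296 and 203 CPM in B4-4 NA, below Addback NA and above Vector NA (Addback over B4-4 +1.48, SE 0.14, adjusted p = 2.92e-05). The same in-between position was seen for TGM1, NQO1, PLK1 and CDC6. Other genes were near the B4-4 level. TRIB3 was at 83.7 and 77.0 CPM in B4-4 NA (Addback over B4-4 −0.14, SE 0.11, adjusted p = 0.365), HSPA5 at 1032 and 813 CPM (+0.24, SE 0.11, adjusted p = 0.119) and PCNA at 191 and 179 CPM (−0.04, SE 0.08, adjusted p = 0.768). TIPARP was at 232 and 159 CPM in B4-4 NA (−0.25, SE 0.18, adjusted p = 0.353). A p above the threshold does not show that Addback and B4-4 were alike for these 4 genes.

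The difference between Addback and Vector was not the same under EDTA. A test of the change in that difference, EDTA minus NA, passed for 3818 genes (24.2%), and for 2183 with Addback NA 1 left out, 2449 with Addback NA 2, 2147 with Vector NA 1, 2138 with Vector NA 2 and 2445 with Vector EDTA 1 left out. CYP1B1 was at 141 and 68.5 CPM in Addback EDTA and 641 and 469.5 CPM in Vector EDTA, so that it was lower in Addback under EDTA and higher under NA (change in the log2 fold change −6.07, SE 0.43, adjusted p = 5.1e-05). JAG1 was at 69.3 and 67.5 CPM in Addback EDTA and 187 and 178 CPM in Vector EDTA, also the reverse of NA (change −2.54, SE 0.17, adjusted p = 3.85e-06). HSPA5 was at 796 and 748 CPM in Addback EDTA and 1224 and 1262 CPM in Vector EDTA, again with the opposite sign (change −1.85, SE 0.15, adjusted p = 1.07e-05). For KRT16 the groups came together, at 60.6 and 81.5 CPM in Addback EDTA and 55.8 and 66.7 CPM in Vector EDTA (change +4.13, SE 0.20, adjusted p = 5.42e-07). TGM1 was at 73.0 and 79.2 CPM in Addback EDTA and 45.4 and 49.9 CPM in Vector EDTA. It was thus higher in both Addback libraries under EDTA, the reverse of the wide gap in NA (change +4.42, SE 0.22, adjusted p = 5.42e-07). The Vector libraries of KRT16 and TGM1 were several-fold lower under EDTA than under NA. SRGN was also far higher in Addback under EDTA, at 29.2 and 26.1 CPM in Addback EDTA and 2.27 and 2.04 CPM in Vector EDTA (change −0.58, SE 0.28, adjusted p = 0.152). CCN2 was at 24.6 and 21.9 CPM in Addback EDTA and 3.24 and 4.48 CPM in Vector EDTA (change −0.87, SE 0.32, adjusted p = 0.069). For these 2 genes Addback was above Vector under both labels.

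**Figure D5:**
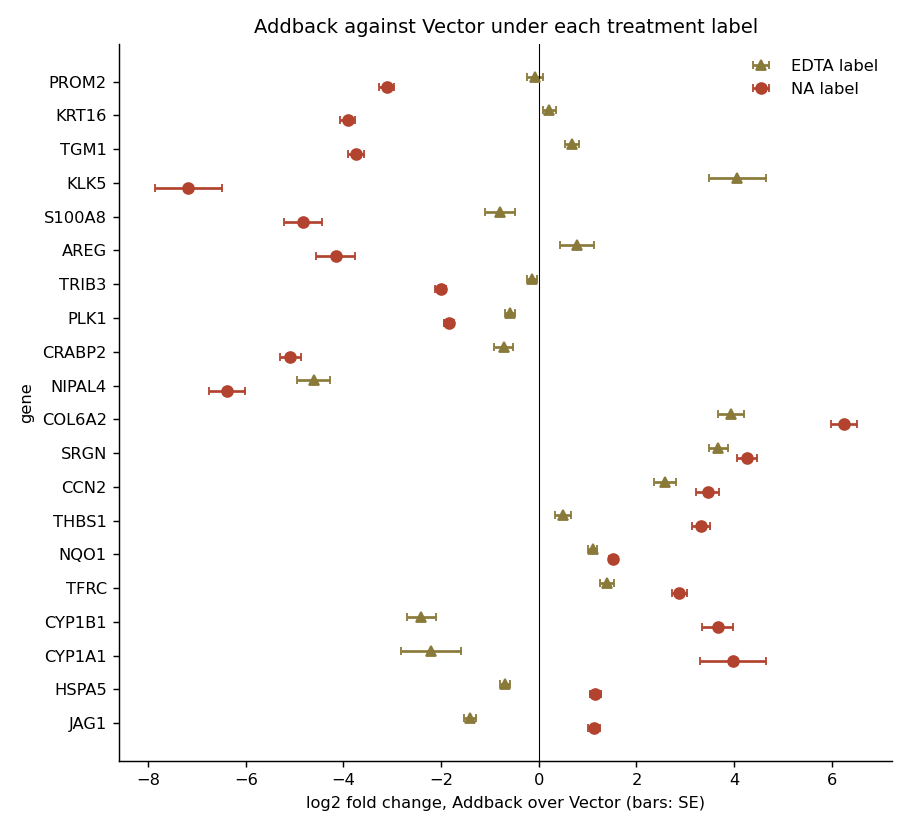
Log2 fold change of Addback over Vector under EDTA and under NA for 20 genes (points; bars are ± 1 SE of the fit to 12 libraries, 2 per group). Genes on opposite sides of 0 under the 2 labels include CYP1B1, CYP1A1, HSPA5, JAG1, TGM1 and KLK5, whereas SRGN, CCN2 and NQO1 stay to the right of 0 under both.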

How the data were processed

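The table the authors deposited holds raw read counts, in whole numbers, for each Ensembl gene. Stranded libraries of 300 bp inserts were made from 250 ng of RNA by polyA selection and read as 150 bp pairs, per the labels' protocols. TopHat2 2.1.1, SAMtools 1.4.1, featureCounts 1.5.3 and the builds GRCh38, hg19 and hg38 are named, without roles, in the submitters' processing notes. The annotation release is not given in the sources used here. Of 58233 genes 57392 matched a symbol by identifier, mitochondrial genes were listed at 0, and GENCODE release 29 gave the coordinates (GRCh38, 1-based).

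In R 4.3.3 with edgeR 4.0.16, filterByExpr over 6 groups left 15749 genes, in which at least 99.866% of each library's counts lay. Libraries were scaled with TMM, means of the 6 groups were fitted to the 12 libraries with robust quasi-likelihood dispersions, and each contrast was tested by quasi-likelihood in edgeR (Benjamini-Hochberg adjusted p under 0.05). The SE is the log2 fold change over the root of F. Ratios of genes at 3 or fewer counts over a pair have exact 95% intervals. Tested on simulated data, the procedure made more false calls than the nominal share and missed many small changes.

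The members and the gene lists were chosen with earlier results of these data known, so a list's direction is not independent evidence. Named genes were ITGB4, ITGA6, PROM2 and NECTIN4, the 15 largest changes per direction among called genes of at least 5 CPM on average with groups that do not overlap, the 5 largest per direction for the difference between EDTA and NA, and up to 4 members of each list with the smallest p. KRT5, GCLM, TXNRD1, HMOX1, COL12A1, GRHL3, KLK6, KLK8, S100A7, AKR1C2, AKR1C3, GPX4, NCOA4, ACSL4, SLC3A2, ATF5, RRM1, RRM2, HES1, ARNT and the defining markers of other cell types fall outside the rule and were chosen after their values were seen. Also tried were 3 other scalings, no filter, DESeq2 1.42.0, voom of limma 3.58.1 with library weights, the replicate number as a block, a 2-fold minimum, fits of fewer libraries and leaving out each library.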

Additional observations from a re-analysis of the deposited data

Results flagged for a closer look

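The gap between Addback and Vector differed between the EDTA and NA labels for 3818 genes by a test of that difference, of which 25 chosen by the rule for named genes are given here. Values are the log2 fold change of Addback over Vector under EDTA minus that under NA, with adjusted p from edgeR's quasi-likelihood test. For genes near 0 counts in a group they are fitted values that depend on the prior count. The Addback EDTA pair was loose, and the count was 4330 without Addback EDTA 1 and 2912 without Addback EDTA 2. KLK7, MUC16, KLK5, AZGP1, S100P, CYP1A1, CYP1B1, CYP1B1-AS1, ANKRD33B and ZNF608 kept the call for the difference without any single library. The other genes given here were not followed in this way for the difference. Most of the genes were chosen for a large gap under NA, which enters the change with a minus sign, so a change of the opposite sign is favoured by the choice.

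Among the chosen genes that were lower in Addback under NA the values were positive. PROM2 changed by 3.043 (SE 0.2263, adjusted p = 6.18e-06), CRABP2 by 4.373 (3.85e-06), S100A8 by 4.035 (0.000619) and EPB41L4A by 2.416 (0.00046). Steeper values were fitted for the epidermal genes KLK7 (14.56, adjusted p = 0.000686), A2ML1 (12.07, 9.7e-06), KLK5 (11.24, 2.24e-05) and SPRR1B (7.088, 1.44e-05). The mucin MUC16 (11.56, adjusted p = 0.00263), AZGP1 (9.119, 0.00148), S100P (8.092, 0.00014), MAPK4 (7.111, 0.00169) and LINC01133 (4.483, 0.000797) had the same sign. In KLK7 and KLK5 Addback was above Vector under EDTA, with KLK7 at 3.27 and 14.96 CPM in Addback EDTA and 0.278 and 0.399 CPM in Vector EDTA.

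Among those that were higher in Addback under NA the values were negative. It was −6.915 for POSTN (adjusted p = 6.08e-05), −4.477 for CXCL10 (0.0106), −2.318 for COL6A2 (0.00275), −2.427 for DCN (0.0309), −3.559 for NMRAL2P (0.000878), −2.704 for CCDC102B (0.00553), −4.564 for ANKRD33B (0.00199) and −3.454 for SULT1E1 (7.18e-05). It was −6.18 for CYP1A1 (adjusted p = 0.0039), −6.071 for CYP1B1 (5.1e-05) and −4.737 for the overlapping CYP1B1-AS1 (4.63e-06). For ZNF608, a zinc finger protein, it was −4.364 (adjusted p = 1.95e-06), with 1.64 and 2.39 CPM in Addback EDTA and 28.3 and 27.6 CPM in Vector EDTA against 14.1 and 13.2 CPM in Addback NA and 8.80 and 9.51 CPM in Vector NA.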

How the results depend on the processing

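Same-numbered Addback NA and Vector NA libraries did not deviate together (correlation −0.0392 over 10632 genes), over all pairs of groups the correlation ran from −0.17 to 0.305, and with a replicate block 5675 genes differed between Addback and Vector in NA, 3734 between Addback and B4-4 in NA and 3851 in the difference between EDTA and NA. With voom and library weights the first count was 9353 and the second 1962. With the 4 compared libraries alone the first count was 9318. A 2-fold minimum left 2344, 1499 and 2006 genes. Leaving out each library gave 3137 to 7269 genes for Addback against Vector, 1324 to 4680 for Addback against B4-4 and 2138 to 5346 for the difference; fewer samples entered these fits. DESeq2 gave 5051, 3359 and 3539. With upper-quartile factors 3114 genes rose and 2573 fell against Vector, the median of all genes moving to +0.0542, and with library totals 2563 rose and 3232 fell, with a median of −0.0322. No called gene that was followed changed sign, but medians near 0 did, as for tight junction genes (+0.0212 with upper-quartile factors). Of 356 called genes followed, 147 lost the call in some setting. Genes under about 0.2 CPM in both pairs are at the floor of detection.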
